A study of Mus musculus with 5 samples.

Results

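The complement system of cultured mouse glia was read here through 9 genes of 20178 with a row in the files. They are the 3 chains of the recognition protein C1q (C1qa, C1qb and C1qc), the components C3 and C4b, complement factor B (Cfb), the anaphylatoxin receptors C3ar1 and C5ar1, and the C1 inhibitor Serping1. They were chosen by symbol, and each had 1 row. RNA-seq came from 5 libraries of ICR mouse cells at passage 2, 1 per condition. VM astrocytes, grown from the ventral midbrain at postnatal day 5, received no virus. VM Cont was the same kind of culture with the mock lentivirus, whose empty vector carries the CMV promoter, and VM N + F carried CMV-driven lentiviruses for Nurr1 (mouse Nr4a2) and Foxa2 (a rat coding sequence). Ctx astrocytes came from the cortex at postnatal day 5 and Ctx NPC, neural progenitor cells, from the cortex of embryonic day 12, both without virus. The labels call the astrocyte cultures astrocyte progenitor cells and do not say how many animals were pooled.

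The labels of the transduced libraries contradict each other. The title of the library called VM Cont here marks it as the control, while its treatment entry names Nurr1 and Foxa2, and the reverse holds for VM N + F. The titles were followed, and every direction between these libraries turns round if the treatment entries are the right ones. Nr4a2 had 53 reads in VM Cont, 183 in VM N + F and 81 in VM astrocytes, and Foxa2 had 15, 216 and 68 in that order. Both transduced genes were thus highest in the library whose title names them. The check rests on modest levels. In VM N + F, Nr4a2 was 2.37-fold and Foxa2 3.33-fold above VM astrocytes, and they ranked above 47.8% and 54.4% of all rows. Reads of the rat Foxa2 sequence are counted only where they align to the mouse gene. Library totals lay between 20010818 and 22554835 reads. With 1 library per condition no difference has a replicate check, and no test of a condition was possible. The intervals below are exact 95% intervals and cover counting error only.

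Complement is a protein cascade that tags surfaces for uptake. The classical pathway starts when C1q binds a target and the proteases C1r and C1s, held in the same complex, become active. C1s then cuts C4 and C2. The alternative pathway uses factor B, stabilized by properdin, and both routes cut C3. C3a and C5a, the small fragments released on the way, act through C3ar1 and C5ar1, and C3 fragments fixed on a surface are bound by the integrin of Itgam and Itgb2. In the brain, C1q is made mainly by microglia and other macrophages, whereas C3 and C4 are also made by astrocytes, above all by reactive ones. C1q and C3 mark synapses for removal during development.

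The 9 genes fell into those that varied widely among the midbrain libraries and those that did not. C1qa, C1qb, C1qc, Cfb, C3ar1 and C5ar1 were highest in VM Cont of all 5 libraries and lowest in Ctx NPC. C3, C4b and Serping1 differed by less than 2-fold in each of the 3 comparisons among VM libraries. In Ctx NPC, C4b was the one member at its highest level. Levels compared between genes are FPKM (read counts per kilobase of transcript, scaled to the library total), and differences are log2 ratios of counts scaled to library totals with 0.5 reads added. A gene was called when it differed at least 2-fold with FPKM above 1 in at least 1 of the 2 libraries.

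**Figure D1:**
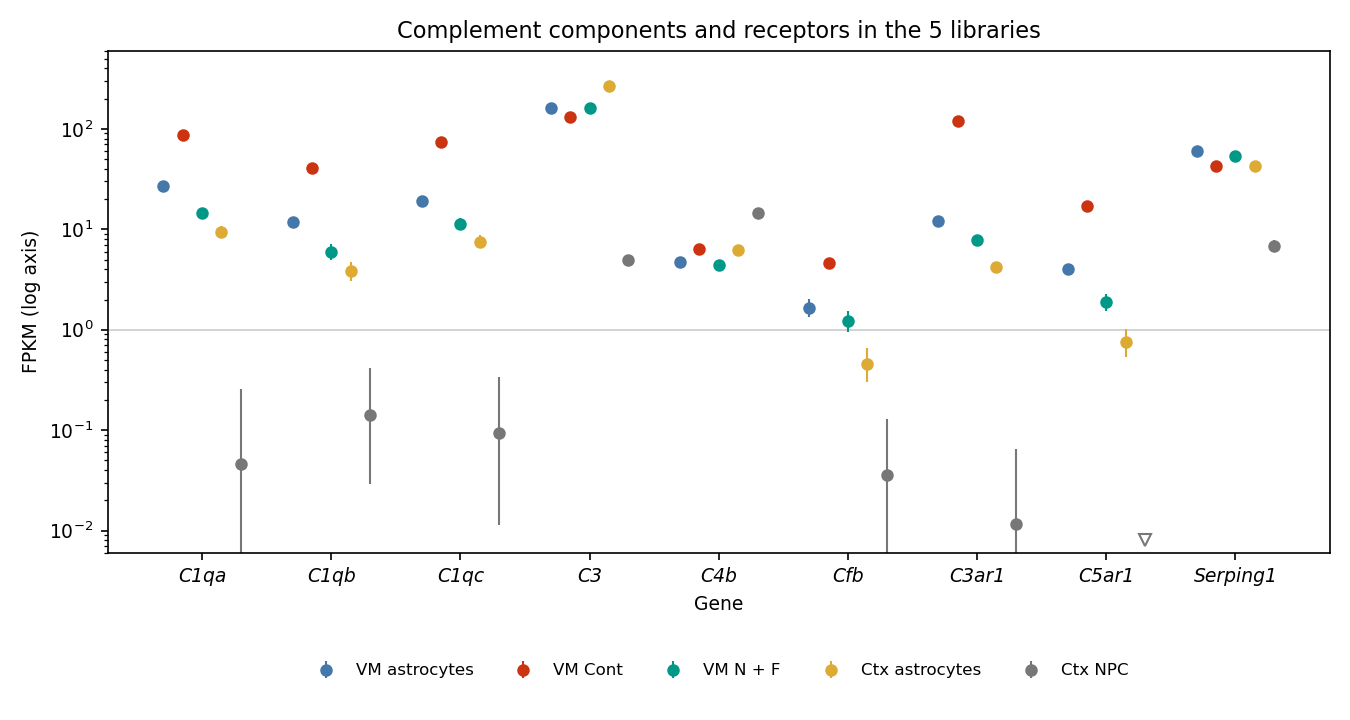
FPKM (log axis) of the 9 complement genes in the 5 libraries, 1 point per library, with exact 95% Poisson intervals for counting error where they exceed the point. The red points (VM Cont) stand highest for C1qa, C1qb, C1qc, Cfb, C3ar1 and C5ar1, the grey points (Ctx NPC) stand lowest for every gene but C4b, the open triangle marks 0 reads, and the line marks an FPKM of 1.

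C1q is built from 3 kinds of chain, and a complete molecule needs all of them. Their genes lie side by side on chromosome 4, between 136880126 and 136898844 in GRCm38.p6, within 18.7 kb. The 250 bases before the start of C1qb (chr4:136886201-136886450, minus strand) and C1qc (chr4:136892915-136893164, minus strand), given 5′ to 3′ from RefSeq (GRCm38.p6), are shown because these genes moved together. The start of C1qc in that promoter table lies inside the outer bound of the gene, at 136892936, so the first bases before it fall within the annotated gene, and distances are counted from the table's start. The capitals mark GAGGAA on either strand, a core of the sites bound by PU.1, the macrophage transcription factor.
C1qb: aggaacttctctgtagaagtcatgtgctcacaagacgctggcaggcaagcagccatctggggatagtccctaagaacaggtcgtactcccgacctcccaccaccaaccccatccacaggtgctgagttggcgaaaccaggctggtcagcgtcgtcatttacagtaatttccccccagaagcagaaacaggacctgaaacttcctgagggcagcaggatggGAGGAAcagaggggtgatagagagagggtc
C1qc: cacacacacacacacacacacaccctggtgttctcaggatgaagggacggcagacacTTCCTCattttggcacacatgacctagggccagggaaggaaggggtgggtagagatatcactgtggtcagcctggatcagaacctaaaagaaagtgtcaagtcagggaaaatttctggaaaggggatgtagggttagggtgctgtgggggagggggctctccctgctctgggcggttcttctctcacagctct
The core stood 30 to 25 bases before the start in C1qb and 193 to 188 bases before it, on the antisense strand, in C1qc. It was in 23.3% of the 32851 mouse promoters of the same length, so its presence in these windows is a description and not a binding site. Of the other members, C3, C3ar1 and C5ar1 had a promoter sequence to search, and GAGGAA was not in those windows.

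C1qa had 623 reads in VM astrocytes, 2144 in VM Cont, 318 in VM N + F, 219 in Ctx astrocytes and 1 in Ctx NPC. C1qb had 270, 991, 129, 88 and 3 reads in the same order. C1qc had 430, 1750, 243, 171 and 2 reads. The order of the libraries was thus the same for all 3 chains down to the cortical astrocytes, with VM Cont highest, then VM astrocytes, then VM N + F. Ctx NPC was at or under the 3 reads taken as the floor of detection, 0.15 CPM (counts scaled to the library total). In FPKM, C1qa stood at 27.0, 87.6, 14.4 and 9.42 in the 4 astrocyte libraries, and in VM Cont it was higher than 95.9% of all rows.

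Against VM Cont, VM N + F was 6.08-fold lower for C1qa (log2 ratio -2.60, interval -2.78 to -2.43), 6.93-fold lower for C1qb (-2.79, -3.07 to -2.53) and 6.49-fold lower for C1qc (-2.70, -2.90 to -2.51). The 3 intervals overlap, and counting error does not separate the chains. Against VM astrocytes, VM Cont was 3.25-fold, 3.47-fold and 3.84-fold higher for C1qa, C1qb and C1qc. Relative to the culture without virus, VM N + F was lower, with log2 ratios of -0.90 for C1qa, -0.996 for C1qb and -0.76 for C1qc, none of which reached 2-fold. C1qb lay just short of it, at 1.998-fold. The intervals of all 3 exclude 0, but such an interval does not hold the spread between cultures.

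The balance of the chains was close to constant. The FPKM ratio of C1qa to C1qb was 2.27 in VM astrocytes (95% interval 1.96 to 2.62), 2.12 in VM Cont (1.97 to 2.29), 2.42 in VM N + F (1.97 to 2.99) and 2.44 in Ctx astrocytes (1.90 to 3.17). That of C1qa to C1qc was 1.41, 1.19, 1.28 and 1.25. The first set of intervals overlaps throughout. For C1qa to C1qc the interval of VM astrocytes (1.25 to 1.60) and that of VM Cont (1.12 to 1.27) overlap only at their ends. In Ctx NPC the ratios rest on 1 to 3 reads per gene and have no useful precision. C1qa and C1qb share no stretch of 100 bases, so reads were not split between them for that reason.

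**Figure D2:**
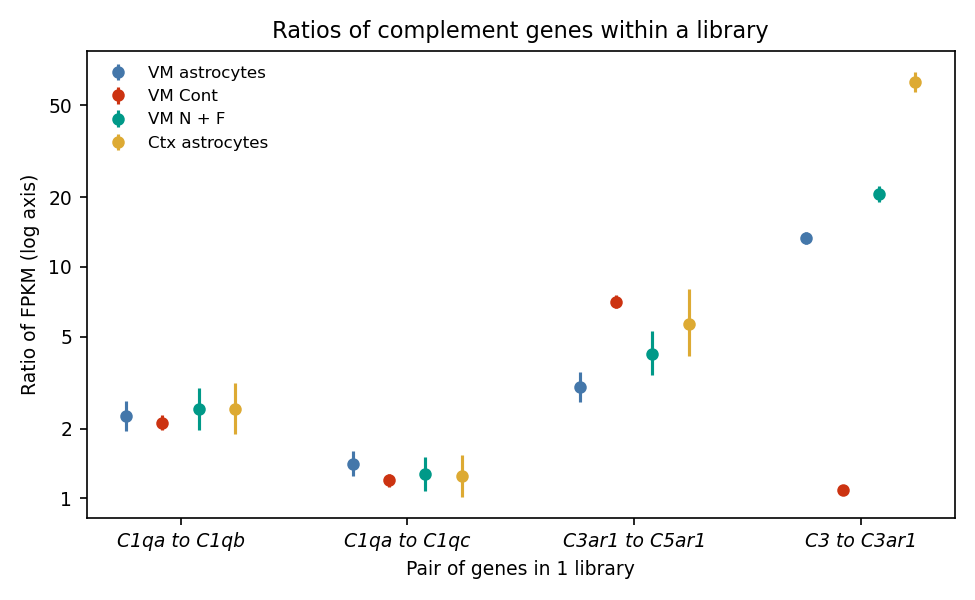
Ratios of FPKM between pairs of complement genes within a library (log axis), with exact 95% intervals for counting error, in the 4 astrocyte libraries. The C1q chains keep nearly the same ratio, C1qa to C1qb between 2.12 and 2.44, whereas C3 to C3ar1 runs from 1.09 in VM Cont to 62.8 in Ctx astrocytes.

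C3ar1, the receptor for C3a, varied more than C1q. It had 1101 reads in VM astrocytes, 11705 in VM Cont, 691 in VM N + F, 393 in Ctx astrocytes and 1 in Ctx NPC. VM Cont was 10.04-fold above VM astrocytes (log2 ratio 3.33, 3.24 to 3.42) and VM N + F was 15.3-fold below VM Cont (-3.93, -4.05 to -3.82). At an FPKM of 121 in VM Cont, C3ar1 came close to C3, the protein its ligand is cut from, which stood at 131. In VM astrocytes the same pair stood at 12.02 and 160, so the ratio of C3 to C3ar1 fell from 13.3 to 1.09 between these libraries and was 20.6 in VM N + F.

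C5ar1, the receptor for C5a, had 216 reads in VM astrocytes, 977 in VM Cont, 97 in VM N + F, 41 in Ctx astrocytes and 0 in Ctx NPC. It followed the order of C1q and C3ar1. It was 9.08-fold lower in VM N + F than in VM Cont (log2 ratio -3.18, -3.50 to -2.88) and 4.27-fold higher in VM Cont than in VM astrocytes. C5ar1 was the only member called between VM N + F and VM astrocytes, 2.13-fold lower in VM N + F (-1.08, -1.45 to -0.74). The ratio of C3ar1 to C5ar1 in FPKM was 3.01 in VM astrocytes (2.601 to 3.50) and 7.08 in VM Cont (6.63 to 7.57), so the receptors did not change by the same factor.

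Cfb, the protease of the alternative pathway, was the least abundant member in the astrocyte cultures. It had 98 reads in VM astrocytes, 290 in VM Cont, 68 in VM N + F, 27 in Ctx astrocytes and 2 in Ctx NPC, or an FPKM of 1.66, 4.65, 1.21, 0.456 and 0.0362. VM Cont was 2.79-fold above VM astrocytes and VM N + F was 3.85-fold below VM Cont (log2 ratio -1.94, -2.35 to -1.56). VM N + F and VM astrocytes did not differ beyond counting error (-0.46, -0.93 to 0.00). Cfb lies on chromosome 17 beside C4b, C4a and C2, in 154 kb between 34728139 and 34882100, and these neighbours moved differently. C2, the protease of the classical pathway, had 948, 1088, 941, 312 and 16 reads in library order, with log2 ratios of -0.06 for VM N + F against VM Cont and 0.12 for VM Cont against VM astrocytes. The microRNA gene Mir6972 overlaps Cfb, and Mir6978 overlaps C3.

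C3 was the most abundant member in every astrocyte library. It had 17688 reads in VM astrocytes, 15335 in VM Cont, 17176 in VM N + F, 29720 in Ctx astrocytes and 510 in Ctx NPC, or an FPKM of 160, 131, 163, 268 and 4.92. VM N + F was 1.24-fold above VM Cont (log2 ratio 0.31, 0.28 to 0.34), and VM N + F and VM astrocytes did not differ beyond counting error (0.02, -0.01 to 0.05). C3 thus differed by at most 1.24-fold among the VM libraries, between which C3ar1 differed by up to 15.3-fold. In Ctx astrocytes C3 ranked above 99.3% of all rows.
The 250 bases before the start of C3 (chr17:57228137-57228386, minus strand, GRCm38.p6, RefSeq, 5′ to 3′) are shown because C3 is a textbook target of NF-kB. The capitals mark GGG and CC with any 5 bases between them, on either strand, a loose core of NF-kB sites.
C3: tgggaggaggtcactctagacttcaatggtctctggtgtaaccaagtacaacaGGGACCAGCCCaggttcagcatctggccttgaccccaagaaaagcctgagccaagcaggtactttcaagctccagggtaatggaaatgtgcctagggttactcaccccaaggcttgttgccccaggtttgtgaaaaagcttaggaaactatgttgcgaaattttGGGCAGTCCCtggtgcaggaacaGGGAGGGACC
Such a core matched 5 times here, counting overlapping matches on both strands, and 45.8% of mouse promoters held at least 1. C1qb, C1qc and C3ar1 also held it and C5ar1 did not, so its presence did not separate C3 from the members that varied. Neither GAAA and GAAA with any 2 bases between them, a core of interferon response elements found in 2.98% of promoters, nor TTC and GAA with any 3 bases between them, a core of STAT sites found in 7.02%, was in the 5 windows. The CCAAT box was in that of C5ar1, 158 to 154 bases before the start on the antisense strand, and in 33.8% of all promoters.

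C4b had 546 reads in VM astrocytes, 776 in VM Cont, 491 in VM N + F, 718 in Ctx astrocytes and 1579 in Ctx NPC. Its FPKM lay between 4.44 and 6.33 in the 4 astrocyte libraries and was 14.5 in Ctx NPC. VM Cont and Ctx astrocytes, at 34.4 and 33.5 CPM, had overlapping intervals (32.0 to 36.9 and 31.1 to 36.0), as had VM astrocytes and VM N + F. C4b has a near copy, C4a, with which it shares 16.5% of its stretches of 100 bases. The study's methods do not say how reads that match both genes were counted, so both values carry that uncertainty. C4a itself had 27 to 67 reads.

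Serping1, which blocks C1r and C1s, had 2362 reads in VM astrocytes, 1774 in VM Cont, 1978 in VM N + F, 1666 in Ctx astrocytes and 252 in Ctx NPC. Among the members it was next to C3 in FPKM in VM astrocytes, VM N + F and Ctx astrocytes, at 60.7, 53.2 and 42.5, and next to C4b in Ctx NPC, at 6.89. The lowest of the midbrain libraries was VM Cont, at 43.0, which was 1.41-fold below VM astrocytes (log2 ratio -0.50, -0.59 to -0.41). The levels of VM Cont and Ctx astrocytes, 78.7 and 77.7 CPM, had overlapping intervals.

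The study compared VM N + F with VM Cont to see what Nurr1 and Foxa2 do in midbrain glia. All 9 members passed the FPKM filter, and 6 were called lower (C1qa, C1qb, C1qc, Cfb, C3ar1 and C5ar1) and 0 higher. Of the 12701 rows that passed, 9.73% were called lower and 9.53% higher. The median log2 ratio of the members was -2.60, against -0.02 over all rows tested. The same 6 members were called higher in VM Cont than in VM astrocytes and 0 lower, where 7.3% of 12703 rows were called higher and 8.48% lower, and the median was 1.70 against -0.01. These comparisons share VM Cont, so the counts are not independent of each other. Between VM N + F and VM astrocytes, 1 member was called lower and 0 higher, where 0.668% of 12428 rows were called lower and 0.322% higher, or 83 and 40 rows, which became 68 and 55 with edgeR scaling. The members' median there was -0.61 and that of all rows -0.05, and 8 of the 9 had a ratio below 0.

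Most of the listed genes that mark microglia moved with the 6 varying members. Of the 14 markers listed, 13 had a row and 12 had reads, since Siglech was at 0 in all 5 libraries. Their summed level was 275 CPM in VM astrocytes, 1089 in VM Cont, 218 in VM N + F, 122 in Ctx astrocytes and 27.6 in Ctx NPC. In VM N + F against VM Cont, 10 of the 11 markers that passed the filter were called lower and 0 higher, with a median over the 12 of -2.70, and in VM Cont against VM astrocytes 10 were called higher and 0 lower, with a median of 2.17. Over all rows tested, 9.73% were called lower in the first comparison and 7.3% higher in the second. Cx3cr1 and Fcrls in both comparisons, and Aif1 in the first, passed through VM Cont alone and could be called in that direction only. Tyrobp, a signalling adaptor of myeloid cells, had 690, 3203, 456, 177 and 2 reads in library order. Laptm5, a lysosomal protein of blood cells, had 1172, 6369, 858, 358 and 7. P2ry12, a receptor of resting microglia, had 5 to 23 reads in each library. Tmem119, another of the microglial markers, had 212, 291, 167, 83 and 5 reads. It passed the filter but was called in neither comparison, with log2 ratios of -0.65 in VM N + F against VM Cont and 0.37 in VM Cont against VM astrocytes. Fewer microglia and less RNA per cell cannot be told apart in a bulk library. The part of microglial content in the results on complement was not tested.

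Against that median of -2.70, C1qa, C1qb and C1qc differed by 0.10, -0.09 and 0.01. C3ar1 was lower than the median by 1.23 (difference -1.23), and 10 of the 12 markers had a higher ratio. Cfb was above it by 0.77 and C5ar1 below it (difference -0.47). C3 and Serping1 stood 3.01 above the median and C4b 2.19 above it, outside the range of all 12 markers. The FPKM ratio of C1qa to Tyrobp was 0.475 in VM astrocytes, 0.352 in VM Cont, 0.367 in VM N + F and 0.651 in Ctx astrocytes. That of C3ar1 to Tyrobp was 0.212, 0.485, 0.201 and 0.295, highest in VM Cont.

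Macrophages of the brain's borders are another source of C1q. Of their 6 listed markers, 3 of the 4 that passed the filter were called lower in VM N + F than in VM Cont, and Cd5l passed through VM Cont alone. The share of all rows tested called lower there was 9.73%. The sum of the 6 was 55.0, 219, 35.5, 9.70 and 0.15 CPM in library order. Cd5l, a secreted macrophage protein, had 8, 1789, 5, 13 and 0 reads, a far larger gap than that of C1q, whereas Pf4 had 534, 608, 301, 36 and 0. Of the 9 astrocyte markers that passed in VM N + F against VM Cont, 1 was called higher in VM N + F and 2 lower. The shares of all rows tested were 9.53% and 9.73%. The median over all 10 markers was 0.155 on the log2 scale. Aldh1l1, an enzyme of folate metabolism in astrocytes, had 7446, 2249, 6255, 10227 and 9626 reads in library order, lowest in VM Cont, and Gfap, the astrocyte intermediate filament, had 8923, 11040, 4316, 27820 and 122531, lowest in VM N + F. VM Cont also differed from both other VM libraries in Mbp, the myelin protein, with 3543 reads against 655 in VM astrocytes and 277 in VM N + F. In that library 4 of the 5 oligodendrocyte markers that passed were called higher than in VM astrocytes, Mog having passed through VM Cont alone. The share of all rows tested called higher there was 7.3%. The part of other cell types in the results was not tested.

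**Figure D3:**
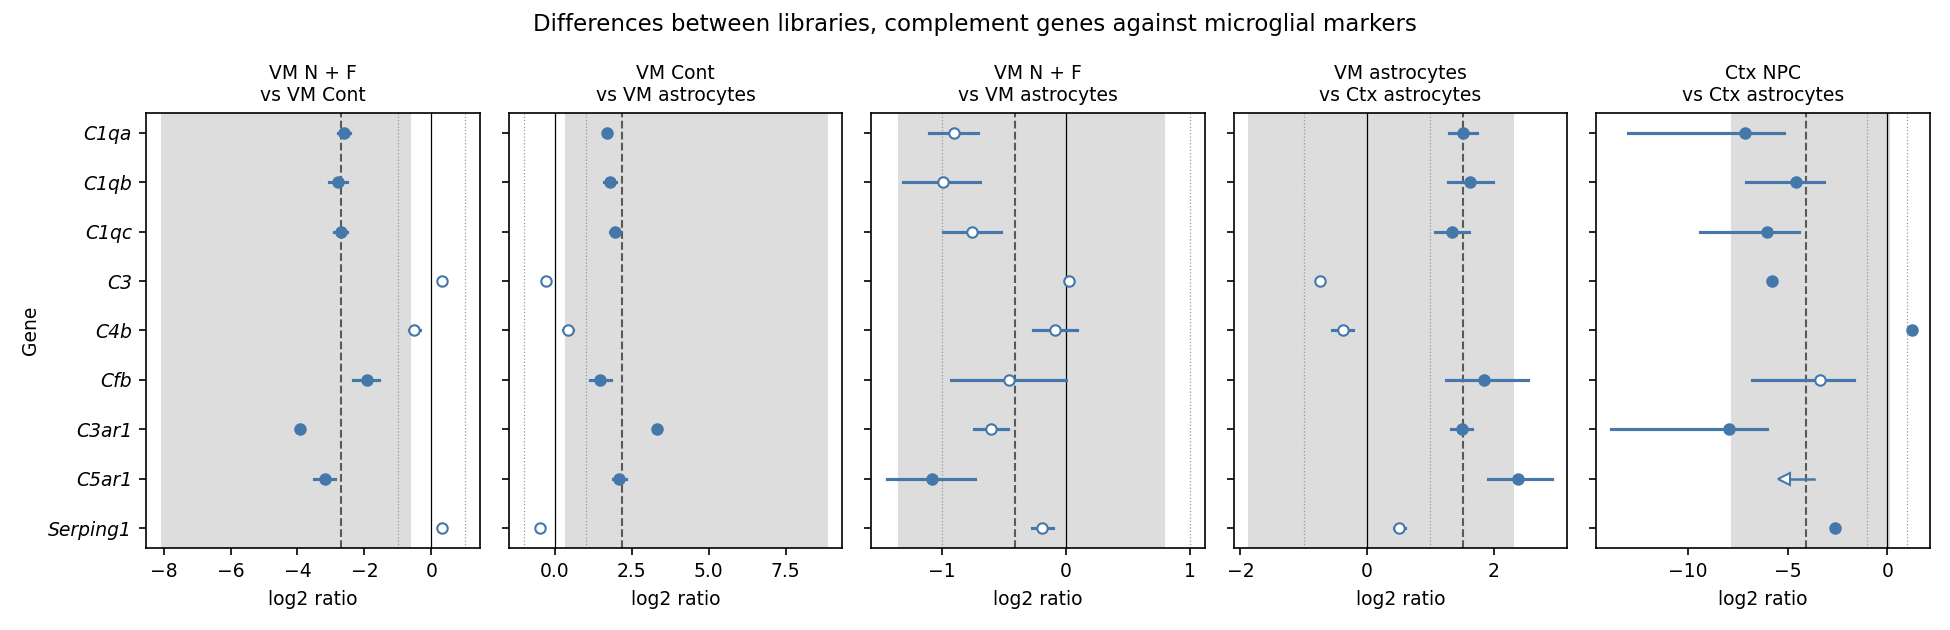
Log2 ratios of the 9 complement genes in the 5 comparisons (filled, called; open, not called), with exact 95% intervals for counting error. The grey band is the range of the 12 microglial markers with reads, the dashed line is their median, dotted lines mark 2-fold, and the arrow for C5ar1 in Ctx NPC starts at the bound set by 0 reads; in VM N + F against VM Cont, the C1q chains sit on the dashed line at -2.70, while C3 and Serping1 sit to the right of 0.

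The wider complement list had 43 further genes, grouped by role. In VM N + F against VM Cont, 21 of them passed the filter, with 8 called lower and 3 higher, where 9.73% of 12701 rows were called lower and 9.53% higher. Of the proteases in the C1 complex, C1s1 and C1s2 went against C1q. C1s1 had 1590 reads in VM astrocytes, 619 in VM Cont, 1502 in VM N + F, 2148 in Ctx astrocytes and 112 in Ctx NPC. It was 2.72-fold lower in VM Cont than in VM astrocytes (log2 ratio -1.44, -1.58 to -1.31) while C1qa was 3.25-fold higher. C1s2 was lower too (-1.32), and C1ra had a ratio of -0.67, short of 2-fold. C1s1 and C1s2 share 7.90% of stretches of 100 bases and C1ra and C1rb 34.5%, which leaves the values of the rarer copies uncertain. C1rb did not pass the filter in either comparison with VM Cont. The C1q chains and the C1s genes thus differed in opposite directions between these libraries.

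In the alternative pathway, Cfp (properdin) went with Cfb. It had 994 reads in VM astrocytes, 3213 in VM Cont, 568 in VM N + F, 242 in Ctx astrocytes and 118 in Ctx NPC, and was 5.10-fold lower in VM N + F than in VM Cont. Cfd, the protease that cuts factor B, was at 0 reads in all 5 libraries. Of the 8 lectin pathway genes, Masp1 and Fcna passed the filter in VM Cont against VM N + F, and Fcna, a ficolin of macrophages, had 29, 122, 28, 4 and 0 reads. The pathway past C3 was close to silent. Hc, which encodes C5, had 7 to 24 reads, and C6, C7, C8a, C8b and C9 had 0 to 3 reads in each library. C8g had 8 to 67 reads. It was called lower in VM Cont than in VM astrocytes, but it passed the filter through VM astrocytes alone and could be called only lower.

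The complement receptors followed C3ar1 and C5ar1. Of the 9 receptor genes, C3ar1 and C5ar1 among them, 6 passed the filter in VM N + F against VM Cont, and all 6 were called lower, with a median over the 9 of -3.03. Over all rows tested there, 9.73% were called lower. Itgam, which encodes the alpha chain of complement receptor 3 and is itself a myeloid gene, had 1893, 7874, 1346, 425 and 2 reads in library order. Itgb2, its beta chain, had 965, 4530, 664, 253 and 10. Cd93 had 200, 967, 150, 34 and 37 reads and Vsig4, a receptor for C3 fragments on resident macrophages, had 16, 77, 7, 5 and 0. C5ar2, Itgax and Cr2 had at most 31 reads. Vsig4 passed through VM Cont alone and could be called only lower in VM N + F, and 3 of the 9 had too few reads to pass.

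In VM N + F against VM Cont the soluble regulators varied less than the receptors, whereas membrane regulators were called in both directions. Of the 5 soluble regulators, Serping1 among them, that passed in VM N + F against VM Cont, 0 were called in either direction. Clu, which blocks the terminal complex, had 16701, 10701, 14049, 32172 and 10829 reads in library order. Of the 5 membrane regulators that passed, 2 were called lower and 1 higher, where 9.73% of all rows tested were called lower and 9.53% higher. Cd55 was lower in VM N + F than in VM Cont (log2 ratio -1.18), as was Cr1l, the mouse regulator also called Crry (-1.31). Csmd1, which inhibits complement on neural cells, was higher (1.21).

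**Figure D4:**
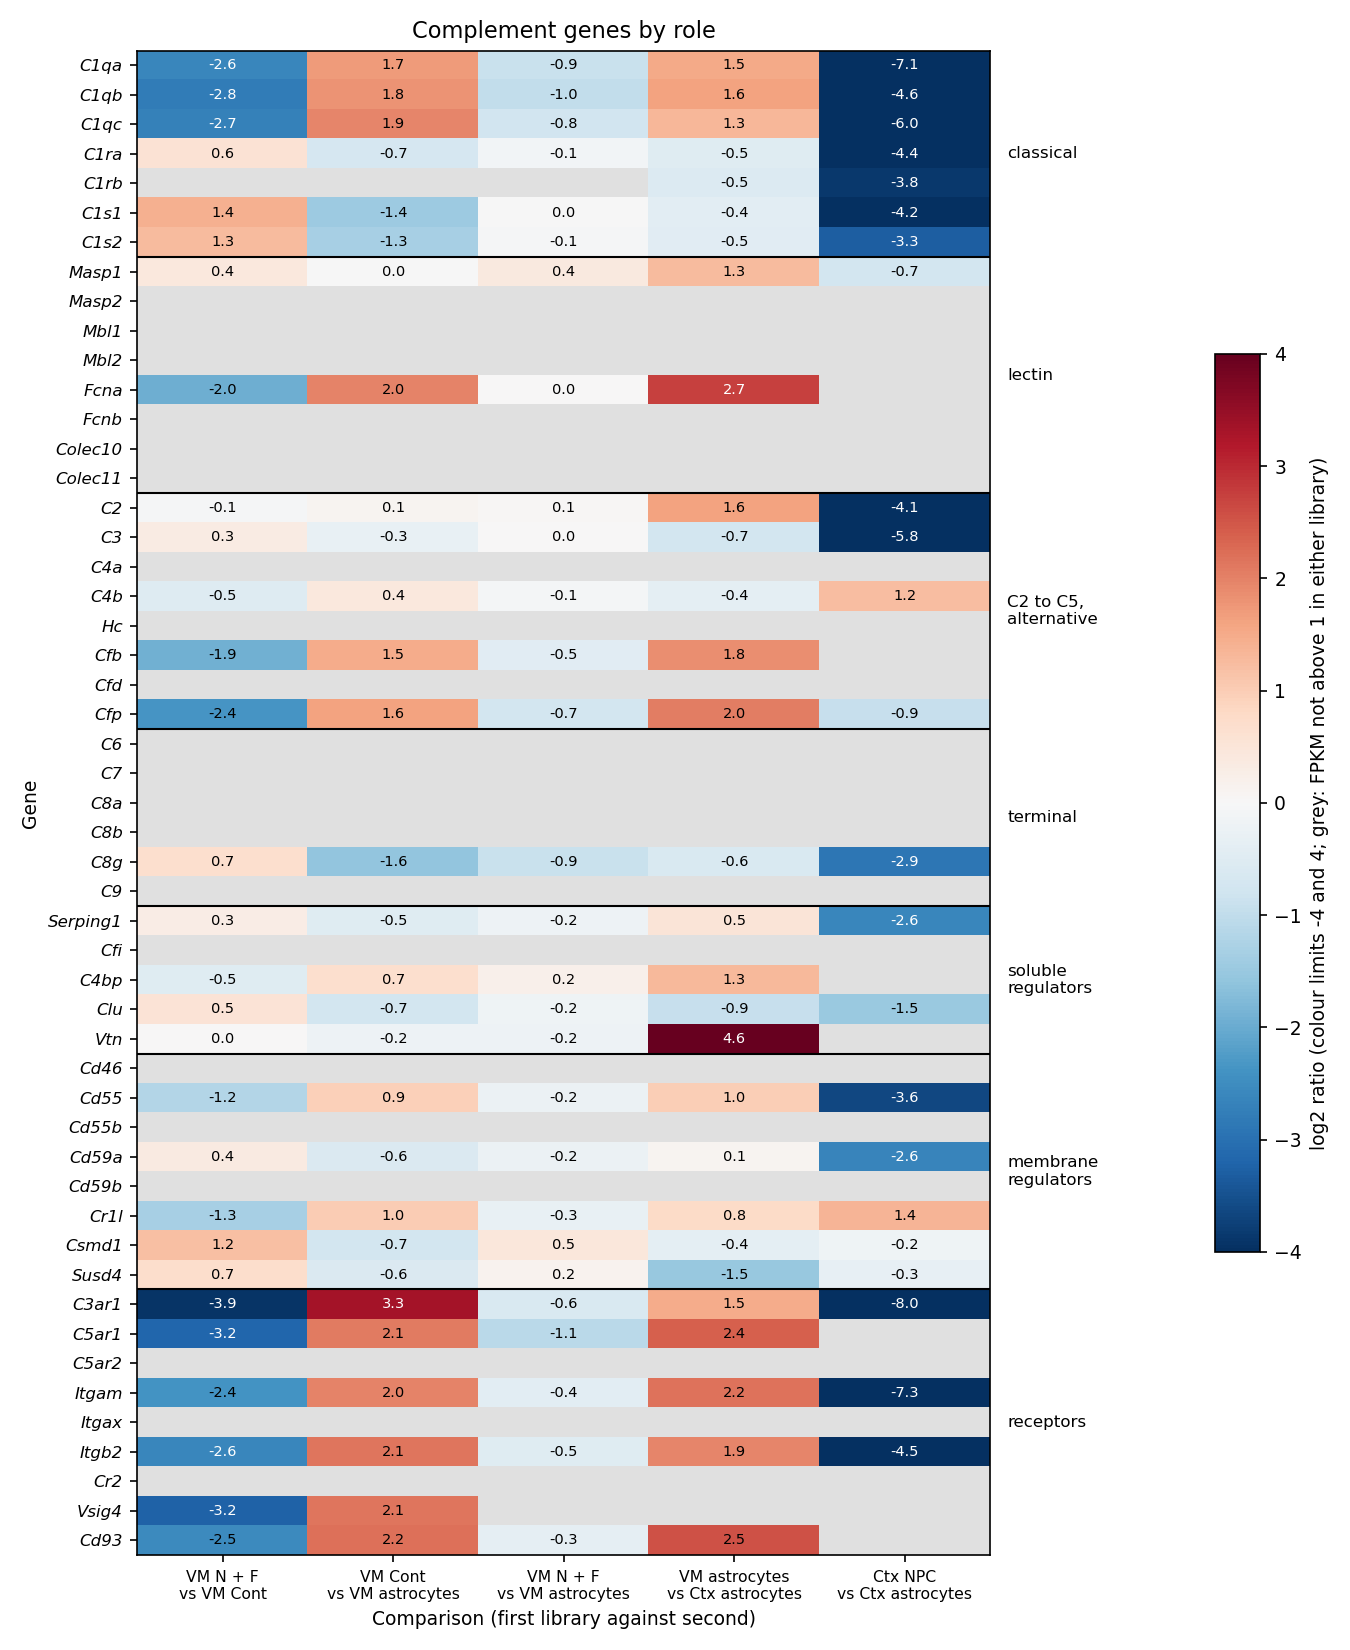
Log2 ratios of complement genes, the 9 members among them, in rows by role, for the 5 comparisons in columns (red, higher in the first library; blue, lower; colours end at -4 and 4). Grey cells had an FPKM of at most 1 in both libraries; the receptors and C1q chains form blue blocks in the first column and red blocks in the second, while C1s1 and C1s2 show the opposite colours.

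VM and Ctx astrocytes were compared without virus, as the same cell class from a pair of brain regions. Of the 9 members, 6 were called higher in VM astrocytes (C1qa, C1qb, C1qc, Cfb, C3ar1 and C5ar1) and 0 lower, where 9.89% of 12553 rows were called higher and 4.49% lower. Cfb and C5ar1 had an FPKM above 1 in VM astrocytes only, so they could be called only in that direction. C1qa was 2.86-fold, C1qb 3.09-fold and C1qc 2.53-fold higher in VM astrocytes, C3ar1 2.82-fold and C5ar1 5.30-fold (log2 ratio 2.39, 1.92 to 2.93). The 12 microglial markers had a median of 1.51, against which C1qa differed by 0.01, C3ar1 by -0.02 and C5ar1 by 0.88. C3 went the other way and was 1.67-fold lower in VM astrocytes (-0.74, -0.77 to -0.71), short of a call, and the astrocyte markers had a median of -1.20.

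Of the 43 further complement genes, 21 passed the filter between the regions, with 10 called higher in VM astrocytes and 1 lower. The shares of all rows tested were 9.89% higher and 4.49% lower. Fcna, C4bp, Vtn and Cd93 passed through VM astrocytes alone and could be called only higher. Itgam, Itgb2 and Cfp were among the higher ones, with log2 ratios of 2.16, 1.94 and 2.05. C2 was higher in VM astrocytes by 1.61 on the log2 scale. Vtn, which encodes vitronectin, an inhibitor of the terminal complex, had 60 reads in VM astrocytes and 2 in Ctx astrocytes (log2 ratio 4.602). Susd4, a complement inhibitor, was the 1 called lower in VM astrocytes (-1.52). The fibroblast markers were also higher in VM astrocytes, 4 of 6 being called, where 9.89% of all rows tested were called higher. Dcn had 1551 reads in VM astrocytes and 122 in Ctx astrocytes. Their part in these differences was not tested.

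Of the 5 comparisons, Ctx NPC against Ctx astrocytes had the highest shares of called rows. The label check was mixed. Of 7 progenitor markers, 3 were called higher in Ctx NPC and 1 lower, against 20.1% and 17.9% of all rows tested. Their median log2 ratio was 0.57. Hes5 had the highest ratio of the list, with 1050 reads in Ctx NPC and 20 in Ctx astrocytes. It passed the filter through Ctx NPC alone and could be called only higher. Vim was the 1 called lower (-1.16). Gfap, at 122531 reads, and Mbp, at 75411, were also highest in the library labelled Ctx NPC. Of the members, 7 passed the filter, with 6 called lower (C1qa, C1qb, C1qc, C3, C3ar1 and Serping1) and C4b called higher, where 17.9% of 12623 rows were called lower and 20.1% higher. C1qa, C1qb, C1qc and C3ar1 passed through Ctx astrocytes alone and could be called only lower. The ratios of the C1q chains and C3ar1 rest on 1 to 3 reads in Ctx NPC. C3ar1 had a log2 ratio of -7.96 with an interval of -13.83 to -6.03, and C1qb, with 3 reads, -4.57 (-7.08 to -3.18). C5ar1, at 0 reads, was at least 12.8-fold lower at a floor of 3 reads in that library. Cfb, with 2 reads against 27, was lower by 3.38 on the log2 scale (log2 ratio -3.38, -6.77 to -1.66). Neither passed the filter.

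C3 was 54.4-fold lower in Ctx NPC than in Ctx astrocytes (log2 ratio -5.76, -5.90 to -5.64) and Serping1 6.17-fold lower (-2.62, -2.82 to -2.43). C4b was 2.36-fold higher (1.24, 1.11 to 1.37). The median of all rows tested was itself 0.19 in this comparison, and other scalings moved it by -0.17 to -0.19. C4b had a log2 ratio of 1.05 to 1.07 under them. The C3 to C4b ratio of FPKM was accordingly 43.4 in Ctx astrocytes (40.3 to 46.8) and 0.339 in Ctx NPC (0.306 to 0.375), so that C4b and not C3 was the leading component there. The classical proteases were lower as well, with log2 ratios of -4.16 for C1s1 and -4.45 for C1ra. All 7 genes of the classical group, C1q included, were called lower, against 17.9% of all rows tested. Each except C1s1 passed the filter through Ctx astrocytes alone and could be called only lower. Cr1l was higher (1.36). Of the microglial markers, Tyrobp had 2 reads and Laptm5 had 7 in Ctx NPC.

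Likeness of pattern was measured by the root-mean-square difference of log2 levels, centred on each gene's mean over the 5 libraries, among 13298 rows with FPKM above 1 in at least 1 library. The rows nearest to C1qc were Slfn2 (0.12), Fli1 (0.23) and Marco (0.24), and those nearest to C1qa were Gpnmb (0.29), Ugt1a7c (0.33) and Klhl6 (0.35). C1qb was nearest to Cd300ld (0.17), Hcar2 (0.18) and Prss46 (0.21). Fli1 is a transcription factor of blood and endothelial cells and Marco a scavenger receptor of macrophages. C3ar1 was nearest to Cd84 (0.33), Slfn5 (0.45) and Cd36 (0.47), and C5ar1 to Ncf4 (0.24), Tbxas1 (0.25) and Ccl3 (0.28). Ncf4 is a subunit of the phagocyte oxidase and Ccl3 a chemokine of activated myeloid cells.

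The other members had other neighbours. C4b was nearest to Glul (0.06), the glutamine synthetase of astrocytes, Synrg (0.06) and Fem1a (0.07). Cfb was nearest to Ptger2 (0.07), a prostaglandin E2 receptor, Il11 (0.10), a cytokine of the interleukin-6 family, and A530032D15Rik (0.17). C3 was nearest to Ctxn3 (0.11), C1qtnf1 (0.25) and Pcdhgc5 (0.26), and Serping1 to Pqlc3 (0.12), H2-T-ps (0.15) and Tbc1d2 (0.15). Between members, the nearest pair was C1qa and C5ar1, at 0.41, followed by C1qa and C1qc at 0.46, and the farthest was C4b and C3ar1, at 4.75. The C1q chains, Cfb and the anaphylatoxin receptors had at most 3 reads in Ctx NPC, so the share of that library in their distances is uncertain. Some of the named neighbours had few reads themselves. Cd300ld had 0 to 135 reads per library, Prss46 0 to 156, A530032D15Rik 0 to 41 and Ctxn3 1 to 91.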

How the data were processed

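RNA-seq of 5 libraries was analysed from the tables that the authors deposited, which hold raw read counts and FPKM for 20178 RefSeq transcripts, of which 19997 had a symbol in the RefSeq gene table (GRCm38.p6) and 181 had none. Per the submitters' notes and the study's methods, reads were converted with bcl2fastq 1.8.4, trimmed at a quality of 20, aligned with STAR and counted with HTSeq, and DESeq is named too. The labels name mm9 and the methods mm10, the counting's strand setting is not given in the sources used here, and all coordinates here come from GRCm38.p6. The deposited FPKM values equal counts scaled by library total and transcript length within a relative difference of 4.1e-05.

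Counts were scaled to library totals (20010818 to 22554835 reads), 0.5 reads were added, and log2 ratios were formed for 5 comparisons. With 1 library per condition no test was made and no p-value is given. A row was called at 2-fold with FPKM above 1 in at least 1 of the 2 libraries. Ratios have exact (Clopper-Pearson) and levels exact Poisson 95% intervals, which cover counting error only, and 3 reads were taken as the floor. No pair of libraries held identical counts. Python 3.11.15, numpy 2.4.6, pandas 2.3.3 and scipy 1.17.1 were used, with edgeR 4.0.16 and DESeq2 1.42.0 (R 4.3.3) for alternative scalings only, and the code was tested on simulated counts. The alternatives were edgeR and DESeq2 scaling, the upper quartile, 5 reads added, other FPKM filters and a 2.6-fold cutoff.

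The genes named are the 9 members, the complement genes called among the VM libraries or differing at least 4-fold with FPKM above 1 in the other comparisons, up to 4 markers of each cell type with the most reads, Nr4a2 and Foxa2, and the 3 rows most like each member. Some markers (P2ry12, Tmem119, Siglech, Hes5, Dcn, Aif1, Cx3cr1, Fcrls and Mog), the complement genes with few reads or calls in the other comparisons only, and the genes of the interferon and NF-kB lists fall outside that rule and were chosen after their values were seen. Some genes of the lists are not reported here by name. Members and lists were chosen with earlier results of these data known.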

Additional observations from a re-analysis of the deposited data

How the results depend on the processing

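No log2 ratio of a member changed sign under any alternative where it was called, and no count of called members moved by more than 1.5 times under another scaling or with 5 reads added. Of the counts of called members, 67 stayed within 1.5 times of the value reported and 3 did not. C4b was no longer called in Ctx NPC against Ctx astrocytes at 2.6-fold (0 members higher), nor was C5ar1 in VM N + F against VM astrocytes (0 lower), and with FPKM above 1 required in both libraries 2 members were called lower in Ctx NPC. Of the members' log2 ratios, 166 stayed within their counting interval and 14 did not.

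Over all rows, 48 counts stayed within 1.5 times and 22 did not. Without the filter, 2388 rows were higher and 2453 lower in VM N + F against VM Cont, 2042 and 2288 in VM Cont against VM astrocytes, 759 and 1020 in VM N + F against VM astrocytes, 2759 and 1319 in VM against Ctx astrocytes, and 3961 lower in Ctx NPC. At 2.6-fold the counts were 682 and 789, 598 and 648, and 11 and 24 in the VM comparisons, 279 lower in VM against Ctx astrocytes and 1618 higher in Ctx NPC. With FPKM above 1 in both libraries they were 23 and 39 in VM N + F against VM astrocytes, 687 lower in VM Cont against VM astrocytes, 755 higher in VM against Ctx astrocytes and 1460 lower in Ctx NPC. These alternatives test more rows, fewer rows or a larger change by construction.

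No paired analysis was possible because each condition had 1 library. For the same reason no replicate was left out. Depth limits values at or below 3 reads, those of C1q, Cfb, C3ar1 and C5ar1 in Ctx NPC.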

Other observations

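Cytokines of the interferon and NF-kB pathways are known inducers of C3, C4 and factor B, and a list of each pathway's genes was read beside them. Of 11 interferon-stimulated genes with a row, 4 were called lower in VM N + F than in VM Cont and 0 higher, with a median log2 ratio of -0.97 and all 11 below 0. Over all rows tested there, 9.73% were called lower and 9.53% higher. Isg15, a ubiquitin-like modifier, had 4071 reads in VM astrocytes, 4727 in VM Cont, 2025 in VM N + F, 1983 in Ctx astrocytes and 235 in Ctx NPC. Between VM Cont and VM astrocytes 0 of the 11 were called, with a median of 0.27, where 7.3% of all rows tested were called higher and 8.48% lower. C1q, Cfb and the anaphylatoxin receptors were called higher there, and C3 and C4b were not called. The part of interferon in these differences was not tested. Ctx NPC had 10 of the 11 called lower than in Ctx astrocytes, against 17.9% of all rows tested, with a median of -4.81. Ifit1, Ifit3, Irf7, Ifi44 and Usp18 passed the filter through Ctx astrocytes alone and could be called only lower.

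Of the 12 NF-kB-induced and acute phase genes, 4 were called lower in VM N + F than in VM Cont (Ccl2, Il6, Lcn2 and Saa3) and 0 higher, against 9.73% and 9.53% of all rows tested. The median was -0.13, with 6 of the 12 ratios above 0 and 6 below. Nfkbia, the inhibitor of NF-kB, was among those above 0, with 10210, 5922 and 10269 reads in VM astrocytes, VM Cont and VM N + F, the direction of C3 and Serping1. Cxcl1 and Icam1 were also above 0, with log2 ratios of 0.73 and 0.79. Lcn2, a secreted protein of reactive astrocytes, had 20271, 42080, 14889, 62974 and 2105 reads in library order, highest in Ctx astrocytes like C3. The log2 ratio of Lcn2 in VM N + F against VM Cont was -1.35, while that of C3 was 0.31. The part of NF-kB in these differences was not tested. In Ctx NPC 10 of the 12 were called lower, and Birc3 and Il6 had passed through Ctx astrocytes alone.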
